A study of Mus musculus with 64 samples.

Results

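The utricle and the 3 ampullae of the mouse inner ear were compared between 2 periods of their differentiation. The later period holds the 4 arrays of embryonic day E14.5 and E15, and the earlier period holds the 6 arrays of E12.5, E13 and E13.5. These 10 arrays, out of 64 in the series, were chosen by the tissue and stage in their titles. The 2 arrays of the same tissue at E14, which stand apart from their neighbours in their measured values, were left out of both groups for that reason and are given separately. All embryos were of the inbred strain CBA/J, with no engineered allele and no treatment named, and their stage was judged from the look of each embryo. Each array carries RNA from 1 pool of 6 to 13 dissections, each of 1 utricle with its 3 ampullae, and the 2 pools of a stage come from different litters. Epithelium was freed from the surrounding tissue with the enzyme dispase and by hand, so a pool mixes sensory and non-sensory epithelium of 4 organs. A change in such a pool can reflect the number of cells of a type or the RNA per cell, and the 2 cannot be told apart here.

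The utricle senses linear acceleration, and each ampulla houses the sensory crista of a semicircular canal. In these organs a prosensory field of dividing cells gives rise to hair cells, which carry the mechanosensory bundle and a kinocilium, and to the supporting cells around them. Notch signalling between neighbours sets the proportion of hair and supporting cells. The surrounding epithelium secretes the otoconia and gelatinous membranes that load the bundles, and transports the ions of the endolymph.

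The values are probe set signals on a linear scale with a floor of 10, quantile normalized here. Changes are differences of mean log2(signal + 16), later minus earlier, with a standard error (SE) from limma. A gene is said to have risen or fallen when its limma p-value, adjusted by the Benjamini-Hochberg method over 9352 genes, is below 0.05 and its change is at least 1 log2. The floor held 6.41 to 8.63 percent of the values of the 10 arrays, and the 2 arrays of a stage correlated at 0.957 to 0.99 across probe sets. The first replicate of E12.5 stood furthest from the rest, with correlations of 0.878 to 0.957 with the other 9 arrays. Epcam, an epithelial adhesion molecule, gave signals of 235 to 322 on the earlier and 259 to 346 on the later arrays. Oc90, the main protein of otoconia, gave 7827 to 9356 on the earlier and 9616 to 10482 on the later arrays. Neither gene passed the test. Lum, counted here among mesenchyme markers, gave 851 to 1993 and 386 to 516. The signals of single markers therefore do not measure how pure the epithelium was.

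In the later arrays 195 genes had risen (2.09 percent of those tested) and 48 had fallen (0.513 percent), 2.6 percent together. The median change over all genes was -0.01. Without the first replicate of E12.5 the counts were 172 and 38. Signals of the 4 later and the 6 earlier arrays did not overlap for 172 of the risen and 42 of the fallen genes. Over all genes, 7.13 percent lay wholly above and 5.26 percent wholly below. Of the risen genes, 128 had a higher mean at each of the 4 steps from E12.5 to E15 (65.6 percent, against 6.8 percent of all genes), and 27 of the fallen had a lower mean at each step (56.2 percent, against 5.59 percent). The choice of genes by this comparison favours such an order, so these shares are a description only.

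The 3 lists of hair cell genes covered transcriptional regulators, bundle genes, and calcium, synapse and channel genes. They held 51 measured genes, of which 16 rose and none fell, with a median change of 0.31. For these and all lists below, the shares over all genes are 2.09 percent risen and 0.513 percent fallen. The lists were chosen with earlier results of these data known, so their counts are a description only. Gfi1, a zinc finger regulator that hair cells need to survive, had signals from 25.6 through a median of 83.4 to 320 on the earlier arrays. It reached 691 and 814 at E14.5 and 1144 and 781 at E15. The groups did not overlap, and Gfi1 rose by 3.06 (SE 0.14, adjusted p = 1.22e-19). Atoh1, the bHLH factor that starts hair cell differentiation, had earlier signals from 43.9 through 79 to 150. Its later signals were 256 and 261 at E14.5 and 235 and 227 at E15, all above the earlier arrays and with a narrow spread. Atoh1 rose by 1.44 (SE 0.12, adjusted p = 4.7e-12). The other 11 regulators did not pass, among them Pou4f3, a POU factor of hair cells, with a change of 0.39 (SE 0.19, adjusted p = 0.131) and overlapping groups. The median change of the 13 regulators was 0.16.

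**Figure D1:**
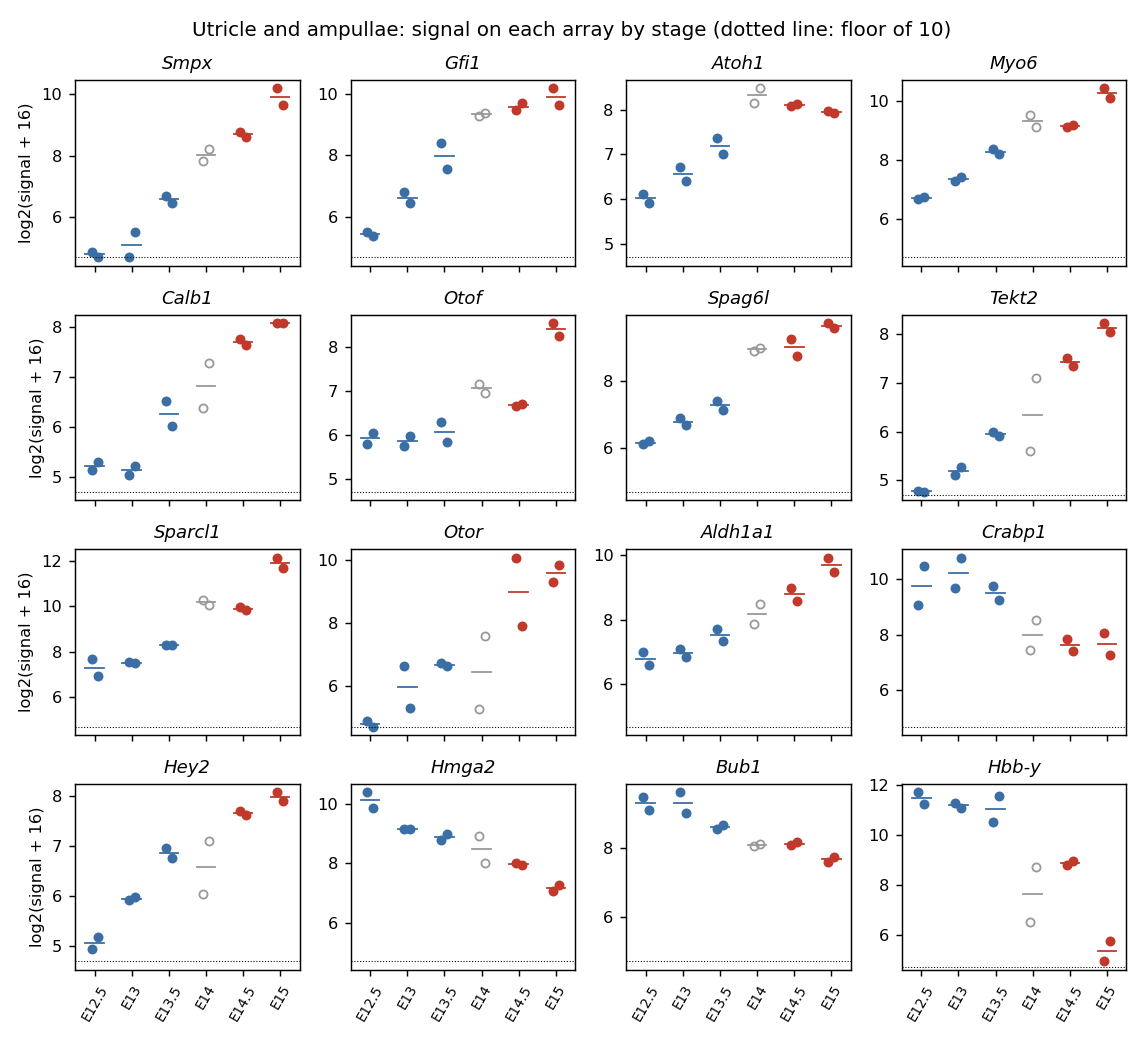
Signal of 16 genes on each utricle and ampullae array, as log2(signal + 16) on the vertical axis, with its own range for each gene, by embryonic stage. Points are arrays and bars the mean of the 2 arrays of a stage; blue is the earlier group, red the later group, open grey E14, which is in neither group, and the dotted line is the floor of 10. Gfi1 climbs from 25.6 to 1144, and Hbb-y drops from 3336 to 14.7.

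Genes of the hair bundle included the largest rise of all. Smpx, a small cytoskeletal protein of muscle and hair cells, lay between 10 and 87.3 on the earlier arrays, with a median of 21.4 and 2 arrays at the floor. It was 422 and 379 at E14.5 and 1160 and 787 at E15. The later arrays were clearly above every earlier one, and the change was 3.82 (SE 0.19, adjusted p = 1.07e-18). Of 18 measured bundle genes 6 rose and none fell, with a median change of 0.25. Myo6, an unconventional myosin at the base of the bundle, went from 85.9 to 311 on the earlier arrays to 537 and 560 at E14.5 and 1355 and 1076 at E15. It rose by 2.26 (SE 0.17), and 2 further probe sets for Myo6 gave 1.3 and 0.76. Myo7a, another myosin of the bundle, had earlier signals from 15.7 to 30.5 and later ones of 53.1, 88.5, 97.8 and 95.8, a rise of 1.2 (SE 0.19). The scaffold protein Ush1c (1.79) and Lmo7 (1.82), an actin-associated protein, also rose without overlap of the groups. Espn, an actin bundler of stereocilia, rose by 1.71 (SE 0.36), but its second E14.5 array, at 194, lay below the highest earlier array, at 219. The other 12 bundle genes lay between -0.19 and 0.44, including Cdh23, a tip link cadherin, at -0.14.

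Calcium-binding, synaptic and channel genes of hair cells showed 8 risen and none fallen of 20 measured, with a median change of 0.63. Calb1, the calcium buffer calbindin, had earlier signals from 17 through 22.3 to 75.8, and 203, 183, 256 and 254 on the later arrays. The change was 2.35 (SE 0.15, adjusted p = 1.43e-15); a second probe set for Calb1, too dim for the filter, gave 0.02. Cabp2, a calcium sensor of the hair cell synapse, was at the floor on all 6 earlier arrays and reached 39.5 and 25 at E14.5 and 132 and 110 at E15. Its rise of 1.63 (SE 0.13) is therefore a lower bound. Otof, the calcium sensor of vesicle fusion at the hair cell synapse, had earlier signals from 37.4 to 61.9 and later ones of 84.8 and 86.9 at E14.5 and 356 and 288 at E15. All later arrays exceeded the earlier ones, most of all at E15, and the change was 1.59 (SE 0.17). S100a1 (2.41), S100b (2.06) and Pcp4 (2.05), which bind calcium or calmodulin, rose as well, as did the synaptic vesicle protein Syp (1.78). Ap3b2, a subunit of a neuronal vesicle coat, rose by 1.54 (SE 0.28); another probe set, below the filter, gave 0.03. Calb2 (0.31) and Pvalb (0.25), also calcium buffers of hair cells, did not pass.

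Several of these genes are made by neurons too. Of 19 measured markers of ganglion neurons 1 rose and 4 fell, and the summed signal of the list was 4872 to 6488 on the earlier and 6423 to 7319 on the later arrays. Nefl, a neurofilament, rose by 1.9 (SE 0.24), from 60.9 to 230 on the earlier to 278 to 706 on the later arrays. The fallen markers were Stmn4, a stathmin of growing neurons (-2.35, SE 0.39), Neurod1, a neuronal bHLH factor (-1.25, SE 0.14, with -0.75 on another probe set), the neuronal tubulin Tubb3 (-1.19, SE 0.25) and Gap43, a growth cone protein (-1.1, SE 0.22). Stmn4 gave 953 to 1498 on the earlier arrays, 436 and 400 at E14.5 and 151 and 84.8 at E15, with no overlap. The summed signal of 24 epithelial markers was also higher, at 11015 to 14942 on the earlier and 15369 to 18352 on the later arrays. Their median change was 0.23, with 8 genes up and 1 down at an adjusted p below 0.05. Over all genes 12 percent were up and 10 percent down by that rule. The part of neurons or of the epithelial share in the hair cell values was not tested.

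Of 14 measured genes of motile-type cilia and the kinocilium 4 rose and none fell, with a median change of 0.6. Spag6l, a protein of the central apparatus of the axoneme, had earlier signals from 53.3 through 95.4 to 155. On the later arrays it gave 596 and 416 at E14.5 and 834 and 748 at E15. The lowest later array was thus far above the highest earlier one, and the change was 2.58 (SE 0.17, adjusted p = 1.03e-14). Tekt2, a tektin of the axonemal doublets, had earlier signals from 11.2 through 20.5 to 48 and later ones of 166, 147, 283 and 245. It rose by 2.47 (SE 0.18). The dynein light chain relative Tctex1d1 (1.5, SE 0.11) and the radial spoke protein Rsph1 (1.17, SE 0.14) completed the risen members. With a pseudocount of 64 they missed 1 log2, at 0.91 for Tctex1d1 and 0.84 for Rsph1. Further members were higher with an adjusted p below 0.05 but by less than 1 log2. They were Mns1 (0.91), Kif9 (0.86), Tekt1 (0.69), Ift172 (0.51) and Rsph9 (0.48). At that adjusted p and any size 9 of the 14 were higher and 0 lower, against 12 and 10 percent of all genes. Foxj1, the regulator of motile ciliogenesis, stood at 0.05.

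Of 25 measured prosensory, supporting cell and Notch genes 1 rose and none fell, with a median change of 0.09. The riser was Hey2, a Notch-related bHLH repressor, which had earlier signals from 14.7 through 45.8 to 110. It gave 193 and 181 at E14.5 and 254 and 225 at E15, above all earlier arrays. The change was 1.87 (SE 0.18, adjusted p = 1.62e-10). Sox2, the prosensory SOX factor, went from 302 to 629 on the earlier to 609 to 706 on the later arrays, which overlap. Its change of 0.53 (SE 0.1, adjusted p = 9.22e-05) was under 1 log2. Jag1, a Notch ligand of the prosensory field, had a change of -0.19 (SE 0.13, adjusted p = 0.301), and Gata3, a zinc finger factor of the otic epithelium, by -0.32 (SE 0.18, adjusted p = 0.22).

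**Figure D2:**
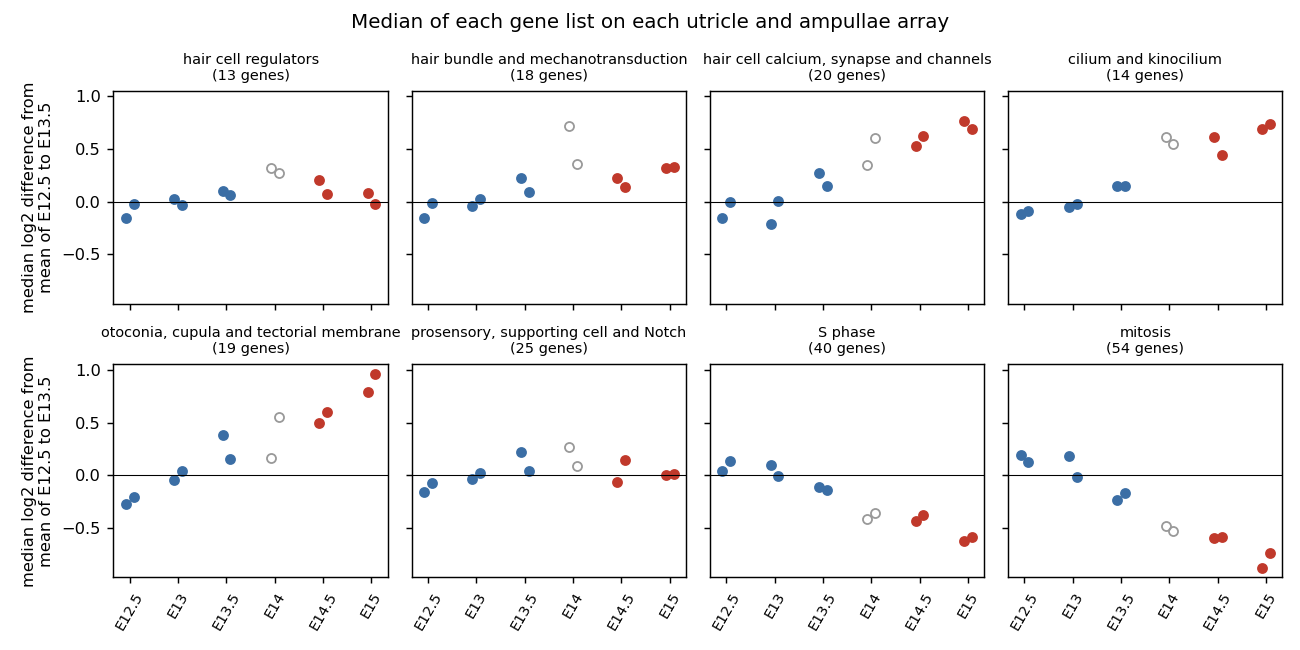
Median over the measured genes of each list of the log2 difference from the mean of the 3 earlier stages, for each utricle and ampullae array by stage. Points are arrays (blue earlier, red later, open grey E14) and the line marks no difference. The otoconia, cilium and calcium, synapse and channel lists climb and the S phase and mitosis lists decline through E15.

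Otoconia, cupula and tectorial membrane genes showed 8 risen and none fallen of 19 measured, with a median change of 0.7. Otor, a small secreted protein of the inner ear, had earlier signals from 10 through 53.1 to 88.6. Its later signals were 1054 and 224 at E14.5 and 613 and 905 at E15, with wide spread but no overlap. Otor rose by 3.48 (SE 0.36, adjusted p = 1.45e-09). Sparcl1, a secreted calcium-binding matrix glycoprotein, had earlier signals from 105 through 178 to 302, then 976 and 893 at E14.5 and 4495 and 3264 at E15. It rose by 3.2 (SE 0.12, adjusted p = 5.08e-22), and by 2.02 (SE 0.19, adjusted p = 2.62e-09) between E14.5 and E15 alone. Tecta, the tectorin that forms the gelatinous membranes, went from 102 to 393 on the earlier arrays to 463, 475, 919 and 755 on the later ones, a rise of 1.72 (SE 0.14). Its partner Tectb rose by 1.36 (SE 0.22), but with overlap: it gave 40.4 and 34.3 at E14.5, within the earlier range of 11.7 to 74.5, and 262 and 141 at E15. Otoa (1.38), which anchors these membranes, the collagen IX chains Col9a2 (1.49) and Col9a1 (1.23), and the NADPH oxidase subunit Cyba (1.03) also rose. Otog, a glycoprotein of the same membranes, went from 4901 to 7749 to 8387 to 10064 without overlap, yet its change of 0.65 (SE 0.13, adjusted p = 0.000183) was under 1 log2. Oc90 had a change of 0.22 (SE 0.15, adjusted p = 0.323).

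The collagens stand next to other matrix genes. Matn4, a matrilin counted here among cartilage markers, had earlier signals from 121 through 427 to 1184, and 3557, 2855, 7096 and 6026 on the later arrays. The groups lay far apart, and Matn4 rose by 3.42 (SE 0.28, adjusted p = 3.31e-12). Of 11 measured cartilage markers only Matn4 and Col9a1 rose and none fell, and the median change was 0.35. At an adjusted p below 0.05 and any size 5 were higher and 0 lower, against 12 and 10 percent of all genes. Their summed signal was 6881 to 10005 on the earlier and 13569 to 22316 on the later arrays. Values of other members ran from 0.8 for Col2a1, a collagen of cartilage and of the otic epithelium, to -0.08 for Acan, the main cartilage proteoglycan, and -0.15 for Sox9. Mia, a secreted relative of Otor, went from 251 to 2176 on the earlier to 4248 to 6317 on the later arrays and rose by 2.67 (SE 0.19). The part of cartilage in these values was not tested.

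For ion and water transport of the endolymph, 3 of 21 measured genes rose and none fell, with a median change of 0.36. Esrrb, a nuclear receptor of the cells that produce endolymph, had earlier signals from 29.4 through 84.3 to 154. It gave 564 and 425 at E14.5 and 1154 and 828 at E15, all above the earlier arrays. The change was 2.95 (SE 0.21, adjusted p = 4.52e-14); a second probe set that did not pass the filter gave -0.1. The carbonic anhydrase Car12 rose by 1.22 (SE 0.18). The water channel Aqp5 rose by 1.14 (SE 0.22) with overlapping groups, and was under 1 log2 without the first E13.5 array (0.96) or the second E14.5 array (0.84). The potassium channel Kcnq1 had a value of 0.6 and the connexin Gjb2 of 0.43, neither past the test.

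Retinoic acid genes went both ways: of 15 measured, 2 rose and 2 fell, and the median change was -0.07. The risers were enzymes that make retinoic acid. Aldh1a1 had earlier signals from 79.9 through 116 to 193, and 488, 366, 943 and 687 on the later arrays, with no overlap and a change of 2.13 (SE 0.17, adjusted p = 1.58e-12). Aldh1a2 went from 165 to 440 on the earlier to 731 to 1863 on the later arrays, a rise of 1.88 (SE 0.31). The fallers were Cyp26a1, which breaks retinoic acid down, and Crabp1, which binds it in the cytoplasm. Cyp26a1 gave 353 to 710 on the earlier and 173 to 219 on the later arrays and fell by 1.18 (SE 0.21). Crabp1 gave 516 to 1730 on the earlier arrays, with a median of 833, and 213 and 155 at E14.5 and 251 and 138 at E15. All later arrays lay below the earlier ones, and Crabp1 changed by -2.19 (SE 0.28, adjusted p = 1.07e-07).

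Crabp1 was also 1 of 4 fallen members among 20 early embryonic and growth genes, none of which rose. Hmga2, a chromatin protein of growing embryonic tissue, gave 423 to 1309 on the earlier arrays, 238 and 230 at E14.5 and 116 and 139 at E15. It changed by -1.81 (SE 0.19, adjusted p = 1.26e-09), and 2 other probe sets gave -2 and -1.48. Igf2bp1, an embryonic RNA-binding protein, changed by -1.19 (SE 0.15) and the phosphatase Dusp9 by -1.28 (SE 0.14). Other probe sets gave -0.21 for Igf2bp1 and 0 and -1.11 for Dusp9.

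Cell cycle genes were lower on the later arrays, mostly by less than 1 log2. Of 94 measured S phase and mitosis genes 89 had a negative change, 77 an adjusted p below 0.05 in that direction (10 percent of all genes), and 10 also passed 1 log2. None rose. The median change was -0.5 for 40 S phase genes and -0.67 for 54 mitosis genes. Bub1, a kinase of the spindle checkpoint, gave 361 to 777 on the earlier arrays and 256, 276, 179 and 199 on the later ones. The groups did not overlap, and Bub1 fell by 1.18 (SE 0.15, adjusted p = 1.05e-07). Kif2c, a kinesin that depolymerizes microtubules, gave 1851 to 2604 on the earlier and 1219, 1247, 899 and 813 on the later arrays, a fall of 1.05 (SE 0.08). Cenpa, the centromeric histone H3 variant, held between 574 and 685 on the earlier arrays and gave 402 and 419 at E14.5 and 215 and 198 at E15. It fell by 1.08 (SE 0.12). The other fallen mitosis genes were Cenpf (-1.25), Smc2 (-1.2), Ect2 (-1.07), Birc5 (-1.06) and Anln (-1.02), and the S phase genes were Rrm2 (-1.35), a ribonucleotide reductase subunit, and Uhrf1 (-1.18), which guides maintenance methylation. Further probe sets gave -0.29 for Bub1 (dim, below the filter), -0.16 for Cenpf, -0.1 for Uhrf1, and -0.76 and -0.99 for Rrm2. Several of the fallen genes stayed lower but missed 1 log2 under other settings. Without E12.5, Rrm2 gave -0.86, Uhrf1 -0.88 and Smc2 -0.94. A pseudocount of 64 gave -0.97 for Cenpa, -0.96 for Cenpf and -0.99 for Smc2. With E14.5 alone as the later stage, Bub1 gave -0.95, Uhrf1 -0.98, Smc2 -0.87, Cenpf -0.91 and Cenpa -0.61. Counting E14 as later gave -0.83 for Cenpf and -0.89 for Uhrf1. Ncapg, a condensin subunit outside the lists, fell by 1.36 (SE 0.26).

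Mki67, the proliferation antigen, gave 320 to 567 on the earlier and 185 to 263 on the later arrays, and its change of -0.94 (SE 0.14, adjusted p = 2.56e-06) was just under 1 log2. Leaving out the second E14.5 array took it to -1.04 and leaving out the second E15 array to -1.05. Of 22 genes linked to exit from the cell cycle none rose or fell. Cdkn1b, the inhibitor p27, had a value of -0.48 (SE 0.25, adjusted p = 0.17) on 1 probe set and 0.53 on another. The first E12.5 array gave 245 for Cdkn1b, against 72.9 to 107 on the other earlier arrays.

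CCAAT boxes, to which the factor NF-Y binds, are a known feature of many cell cycle promoters. The set of fallen S phase and mitosis genes depends on the settings given above. All 10 called in the main comparison had a RefSeq window of the 250 bases before the start (GRCm38.p6). Of these, 7 held CCAAT on either strand (70 percent, against 34.5 percent of 27025 genes) and 4 held it at least 2 times (40 percent, against 2849 of the 27025). The 4 windows with at least 2 matches are printed here to show where the motif lies. They are read in the direction of the gene, with CCAAT or its reverse complement ATTGG in capitals.
Bub1: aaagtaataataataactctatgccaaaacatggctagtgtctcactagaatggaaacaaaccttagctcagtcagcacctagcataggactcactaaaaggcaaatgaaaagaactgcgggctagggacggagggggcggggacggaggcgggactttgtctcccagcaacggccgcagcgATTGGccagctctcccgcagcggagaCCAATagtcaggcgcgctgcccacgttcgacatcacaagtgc
Cenpf: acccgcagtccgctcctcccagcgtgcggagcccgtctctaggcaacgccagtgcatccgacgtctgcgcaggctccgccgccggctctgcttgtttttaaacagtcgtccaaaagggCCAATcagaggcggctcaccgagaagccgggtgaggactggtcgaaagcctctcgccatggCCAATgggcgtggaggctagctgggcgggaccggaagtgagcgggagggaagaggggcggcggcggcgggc
Cenpa: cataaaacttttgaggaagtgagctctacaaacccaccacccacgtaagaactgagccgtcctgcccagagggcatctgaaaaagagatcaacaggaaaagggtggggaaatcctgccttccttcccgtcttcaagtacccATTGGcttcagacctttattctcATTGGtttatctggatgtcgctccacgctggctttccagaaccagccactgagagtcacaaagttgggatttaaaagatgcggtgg
Ect2: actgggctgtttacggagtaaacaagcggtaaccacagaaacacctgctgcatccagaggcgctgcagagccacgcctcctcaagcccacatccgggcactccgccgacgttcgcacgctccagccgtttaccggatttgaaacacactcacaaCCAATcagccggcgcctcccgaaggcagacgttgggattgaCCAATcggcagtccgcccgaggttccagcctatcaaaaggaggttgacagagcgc
The windows are chr2:127831860-127832109 (minus strand) for Bub1, chr1:189688087-189688336 (minus strand) for Cenpf, chr5:30666636-30666885 (plus strand) for Cenpa and chr3:27153879-27154128 (minus strand) for Ect2. The first and second matches begin at -68 and -42 from the start of Bub1, -132 and -71 for Cenpf, -109 and -86 for Cenpa and -96 and -55 for Ect2. TTTGAA on either strand, the core of the cell cycle homology region, was in 3 of the 10 windows (30 percent, against 16.3 percent). Of the 16 risen hair cell genes 14 had a window, and the E box CAGNTG, the kind of site that Atoh1 binds, was in 5 (35.7 percent, against 30.7 percent). CCAAT was in 4 of these 14 (28.6 percent) and TTTGAA in 1 (7.1 percent). These are letter matches, and no binding was measured.

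Among signalling genes, 4 of 33 measured Wnt pathway members rose and none fell, with a median change of 0.04. The ligand Wnt7a rose by 1.96 (SE 0.25), from 30.4 to 224 on the earlier to 218 to 442 on the later arrays, which overlap narrowly. Dkk2 (1.87, SE 0.31), a secreted modulator of Wnt receptors, and its relative Dkk3 (1.36, SE 0.17) rose without overlap; a second probe set for Dkk3 gave 0.59. The receptor Fzd9 rose by 1.08 (SE 0.2), but by 0.98 without the first E15 array. Axin2, a common Wnt target, did not pass, with -0.09. In the BMP and TGF-beta list the ligand Tgfb3 was the single riser of 28 measured genes (1.27, SE 0.22), from 260 to 492 on the earlier to 660 to 1090 on the later arrays. No gene of 18 in the FGF list rose or fell; Fgf9 had a change of -0.5 with an adjusted p below 0.05.

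The list of dorsal and vestibular regulators also holds genes of other parts of the otocyst, such as Otx2. Of its 33 measured genes none rose and 2 fell, both orphan nuclear receptors. The first of them, Nr2f1, was brighter at the same stages in the cochlea (2082 to 3172) and in the saccule (1159 to 2585). Nr2f1 changed by -1.58 (SE 0.23, adjusted p = 1.39e-06), but its later signals of 92.3 and 329 at E14.5 and 42.6 and 183 at E15 overlapped the earlier range of 249 to 747. Nr2f2 changed by -1.03 (SE 0.14) and lay under 1 log2 without the first E12.5 (-0.89), the first E13 (-0.94) or the first E15 array (-0.79). Other probe sets for Nr2f2 gave -0.95 and 0. The homeobox genes Hmx2 (0.32), Hmx3 (0.2) and Dlx5 (0.11), needed for vestibular development, did not pass. Otx2, a homeobox gene of the ventral otocyst, was at the floor on 9 of the 10 arrays.

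Further genes with large changes are described singly. Calml4, a calmodulin-like protein of brush border microvilli, had earlier signals from 30.6 through 109 to 283 and later ones of 1081, 909, 1649 and 1467. It rose by 3.38 (SE 0.17). Ptgds, which makes prostaglandin D, had earlier signals from 63.9 to 103 and later ones of 480, 388, 1377 and 989, a rise of 3 (SE 0.19), and a second probe set gave 3.94. Cngb1, a subunit of cyclic nucleotide-gated channels, went from 10 to 36.1 on the earlier to 133 to 355 on the later arrays and rose by 2.81 (SE 0.18). The aminopeptidase Enpep rose by 2.77 (SE 0.15), and Cpxm2, a relative of carboxypeptidases, by 2.76 (SE 0.18). Cars, the cysteinyl-tRNA synthetase, rose by 3.29 (SE 0.16) on 1 probe set, whereas the other gave 0.2. Cryab, a small heat shock protein, rose by 2.8 (SE 0.17); its other probe sets gave 2.63 and 0.08. With Fos it made up the 2 risen of 19 immediate early and heat shock genes, none of which fell. Among the fallers, Unc5c, a netrin receptor, gave 919 to 1333 on the earlier arrays and 487, 472, 271 and 263 on the later ones. It changed by -1.53 (SE 0.14), with -0.46 on another probe set. The potassium channel Kcnd2 (-1.24), the glycine cleavage enzyme Gldc (-1.24) and Skil (-1.24), a SMAD co-repressor, fell as well. Other probe sets gave -1.08 and -0.31 for Kcnd2 and -0.18 for Skil. Cyp7a1, a bile acid enzyme, gave 24.9 to 136 on the earlier arrays and the floor on all 4 later ones. Its fall of 1.51 (SE 0.33) is a lower bound, and a second, dimmer probe set gave 0.03.

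**Figure D3:**
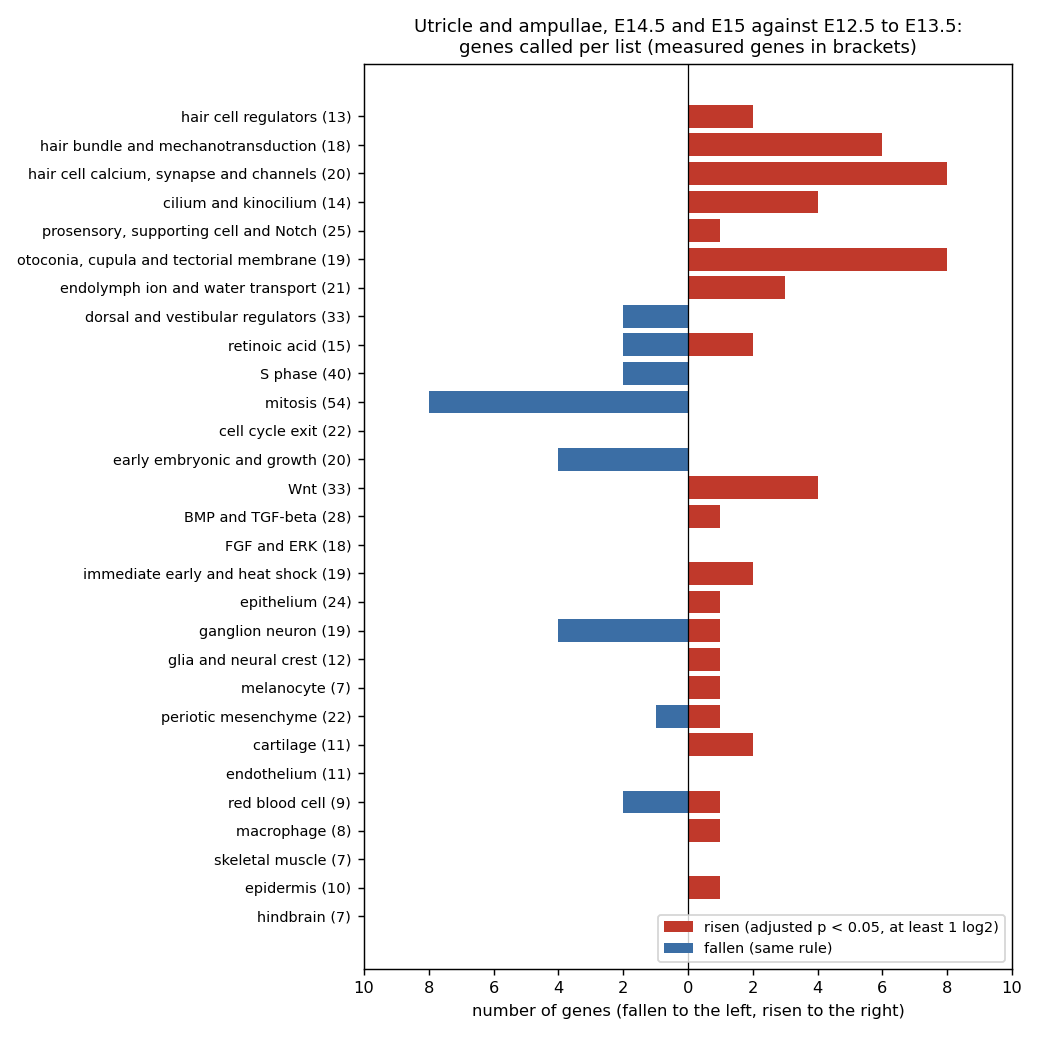
Number of genes that rose (red, to the right) and fell (blue, to the left) between the earlier and later utricle and ampullae arrays in each of 29 gene lists, with the number of measured genes in brackets. The calcium, synapse and channel list and the otoconia list each have 8 risen genes, and the mitosis list has 8 fallen genes.

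Markers of blood and of cells that dissection can carry along were read on the same arrays. The largest fall of all was that of Hbb-y, the embryonic beta-like globin of primitive red cells. It gave 1469 to 3336 on the earlier arrays, 431 and 478 at E14.5 and 14.7 and 37.4 at E15, a change of -4.13 (SE 0.32, adjusted p = 7.98e-13). The embryonic alpha-like globin Hba-x fell by 1.04 (SE 0.29), but by less than 1 log2 without the second E12.5 (-0.92) or the second E13.5 array (-0.91), and it was at the threshold without the first E15 array (-1). The adult beta globin Hbb-b2 rose by 2.21 (SE 0.51), from 192 to 673 on the earlier to 1354 to 2427 on the later arrays, and its other probe set gave 0.85 (SE 0.18). Globin probe sets can pick up related globins, so the split between them is uncertain. The summed signal of 9 red cell markers was 2431 to 4725 on the earlier and 2464 to 3372 on the later arrays.

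Among 22 periotic mesenchyme markers 1 rose and 1 fell, with summed signals of 9620 to 13035 and 8409 to 10134. Lum, a proteoglycan of connective tissue, gave 851 to 1993 on the earlier and 386 to 516 on the later arrays and fell by 1.5 (SE 0.24). Col1a1 rose by 1.04 (SE 0.29), but it gave 21.2 and 10 at E14.5 and 180 and 96.3 at E15, and the call was lost without the first E13 (0.79), E14.5 (0.91) or E15 array (0.84). Another probe set for Col1a1 gave 0.46. Of 8 macrophage markers 1 rose: Mrc1, the mannose receptor, gave 73.3 to 153 on the earlier arrays, 249 and 204 at E14.5 and 817 and 1288 at E15. The change was 2 (SE 0.3, adjusted p = 3.72e-06), whereas Csf1r, a defining receptor of macrophages, had a value of 0.01. The summed macrophage signal was 681 to 835 on the earlier and 796 to 1957 on the later arrays.

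The remaining marker lists had few calls. Of 24 epithelial markers Cldn8, a tight junction claudin, rose by 1.42 and none fell. In the melanocyte list 1 of 7 rose, the pigment protein Pmel (1.47), and in the glial and neural crest list 1 of 12, S100b. Perp, a desmosomal protein, was the riser among 10 epidermal markers (1.32). None of 11 endothelial, 7 skeletal muscle or 7 hindbrain markers rose or fell. The part of these cell types in the other results was not tested.

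Single steps between stages were tested as well. From E12.5 to E13.5, 204 genes had risen (2.18 percent) and 108 had fallen (1.15 percent), 3.34 percent together. Much of this count depended on single arrays: it was 40 and 2 without the first E12.5 array, 614 and 366 without the second E12.5 array, and 33 and 4 without the first E13.5 array. Among the leading risers were Cars (3.64), Matn4 (2.69) and Gfi1 (2.53). The other probe set for Cars gave only 0.2 in the main comparison. Myh9, a non-muscle myosin, fell by 2.47, with signals of 1535 and 541 on the E12.5 arrays and 136 and 169 at E13.5.

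From E13.5 to E14.5, 29 genes had risen (0.31 percent) and 2 had fallen (0.0214 percent). The fallers were Hbb-y (-2.17) and Crabp1 (-1.89), and the leading risers were Otor (2.32), Smpx (2.12), Ptgds (2.01) and Calml4 (1.95). From E14.5 to E15, 28 genes had risen (0.299 percent) and 12 had fallen (0.128 percent). The counts were 12 and 5 without the second E14.5 array and 14 and 3 without the first E15 array. Smpx, Sparcl1 and Myo6 rose both from E12.5 to E13.5 and from E14.5 to E15.

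The largest change of the last step was that of Hbb-y, at -3.54 (SE 0.5, adjusted p = 3.82e-05). The largest rise was that of Fos, an immediate early transcription factor, with signals of 17.3 and 18.1 at E14.5 and 173 and 252 at E15, a rise of 2.74 (SE 0.24, adjusted p = 5.75e-10). The earlier arrays gave 10.9 to 25.6 for Fos, so that only the E15 arrays were high. Fos was higher at E15 in the other tissues as well. The cochlea gave 12 and 21 at E14.5 and 95.6 and 171 at E15, and the saccule 21.3 and 22.3, then 354 and 298. F13a1, a transglutaminase found in macrophages and platelets, gave 94.2 and 72.9 at E14.5 and 562 and 497 at E15, a rise of 2.46 (SE 0.41). Mrc1 (2.11), Col1a1 (2.25) and Tectb (1.97) also led this step. For Mrc1 the cochlea gave 165 and 55.5 at E14.5 and 526 and 321 at E15, and the saccule 294 and 259, then 608 and 880. Of the 195 genes risen over the main comparison, 124 were at least 1 log2 above the earlier mean at E14.5 (63.6 percent, against 1.39 percent of all genes). The 195 genes were chosen by a group that holds the E14.5 arrays, so this share is a description only. With E14.5 as the only later stage, Col1a1 gave -0.09 and Fos -0.06 against the earlier arrays. After Hbb-y, the next fallers of the last step were Slc6a15, an amino acid transporter (-2.01), and Cldn1, a claudin (-1.81), with 1412 and 1277 against 237 and 431 for Slc6a15.

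The same stages were measured in the cochlea, which detects sound, and the saccule, which senses linear acceleration like the utricle, with 10 arrays each. Over this interval 166 genes rose (1.78 percent) and 99 fell (1.06 percent) in the cochlea, 2.83 percent together. In the saccule 194 rose (2.07 percent) and 74 fell (0.791 percent), 2.87 percent together. Of the 195 genes risen in the utricle and ampullae, 79 also rose in the cochlea (40.5 percent of the first list and 47.6 percent of the second). With the saccule 106 were shared (54.4 and 54.6 percent). For fallen genes 23 were shared with the cochlea (47.9 and 23.2 percent) and 25 with the saccule (52.1 and 33.8 percent). In all 3 tissues 48 genes rose and 14 fell, and no gene risen in the utricle and ampullae fell in either other tissue.

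The difference between the tissues was tested directly, as the change in the utricle and ampullae minus the change in the other tissue. Against the cochlea the difference was positive for 71 genes (0.759 percent) and negative for 55 (0.588 percent), 1.35 percent together. The hair cell and cilium lists had called differences on the positive side, with none negative: 1 of 13 regulators, 7 of 18 bundle genes, 6 of 20 calcium, synapse and channel genes and 5 of 14 cilium genes. Smpx rose by 1.29 in the cochlea against 3.82 here, a difference of 2.54 (SE 0.26, adjusted p = 1.07e-08). Gfi1 had a value of 0.91 in the cochlea and differed by 2.15 (adjusted p = 6.38e-10), whereas Atoh1 rose by 1.74 there and differed by -0.31 (adjusted p = 0.416). Spag6l had a value of 0.3 in the cochlea, a difference of 2.28, and Myo7a of -0.04, a difference of 1.25 (adjusted p = 0.00222). Hey2 stood at -0.58 in the cochlea, a difference of 2.45, and Acy1, an aminoacylase, at -0.85 against 1.34 here, a difference of 2.19. The groups overlapped for Acy1 here, with an earlier array at 77.8 and a later one at 64.1. Counting E14 as later gave a change of 0.96 for Acy1. With E14.5 alone as the later stage its difference was 1.42 and did not pass (adjusted p = 0.327). Cell cycle genes gave no called difference, with medians of -0.77 and -1 in the cochlea for S phase and mitosis. In the cochlea 12 of 40 S phase and 27 of 54 mitosis genes fell (1.06 percent of all genes there), against 2 and 8 here. A called difference needs 1 log2, so the missing calls do not show that the tissues are equal.

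Crabp1 differed most from the cochlea in the negative direction. It rose by 2 in the cochlea and changed by -2.19 in the utricle and ampullae, a difference of -4.19 (adjusted p = 9.95e-10). The cochlear signals were 434 to 856 on the earlier arrays, 1154 and 695 at E14.5 and 7641 and 4830 at E15. Crabp1 fell in the saccule too, with a change of -1.97. Ecrg4, a secreted peptide precursor, rose in both tissues, by 4.51 in the cochlea and 1.56 here, a difference of -2.95. Lum stood at 0.85 in the cochlea, a difference of -2.36, and Hmga2 at -0.16, a difference of -1.66. Hmga2 fell in the saccule as well, with a change of -2.15. Nr2f1 stood at 0 in the cochlea and differed by -1.58 (adjusted p = 0.00148), and Cdkn1b rose by 1.26 there and differed by -1.74 (adjusted p = 0.00124). In the utricle and ampullae the change of Cdkn1b, -0.48, did not pass, and another probe set gave 0.53.

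Against the saccule 37 genes had a positive difference (0.396 percent) and 32 a negative one (0.342 percent), 0.738 percent together. The 3 hair cell lists and the cilium list held 1 positive and 4 negative differences. Smpx rose by 4.38 in the saccule (difference -0.56, adjusted p = 0.405), Gfi1 by 2.94 (0.12, adjusted p = 0.863) and Atoh1 by 1.31 (0.13, adjusted p = 0.839). Those 3 differences did not pass the test, which does not show that the tissues are equal. Calb1 was the positive one, with a value of 0 in the saccule and a difference of 2.36 (adjusted p = 2.25e-10). The positive differences were led by Matn4 (0.53 in the saccule, difference 2.89), Esrrb (0.24, difference 2.7), Enpep (0.22, difference 2.55) and Cars (0.76, difference 2.53). The other probe set for Cars changed by only 0.2 in the utricle and ampullae. Aldh1a1 (0.29, difference 1.84, adjusted p = 1.83e-06) and Aldh1a2 (0.02, difference 1.87, adjusted p = 0.0111) also differed. All of these genes rose in the cochlea too, by 2.81 for Calb1, 1.91 for Matn4, 2.69 for Esrrb and 3.62 for Enpep. Cars rose by 1.21 there, Aldh1a1 by 1.22 and Aldh1a2 by 1.45. Their rises were thus not particular to the utricle and ampullae. The negative differences were led by Il33, a cytokine of epithelial and stromal nuclei, which rose by 3.77 in the saccule and 1.36 here (-2.41). Cyp7a1 stood at 0.77 there (-2.28), a value set by the second E15 saccule array at 207, since the other 9 saccule arrays were at the floor. Without that array the difference for Cyp7a1 was -1.51 and still passed. Ap3b2 rose by 3.76 in the saccule (-2.22) and Tectb by 3.28 (-1.93). With only the utricle and saccule groups in the fit, the differences of Cyp7a1 (adjusted p = 0.0697) and Tectb (adjusted p = 0.0664) missed the threshold.

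**Figure D4:**
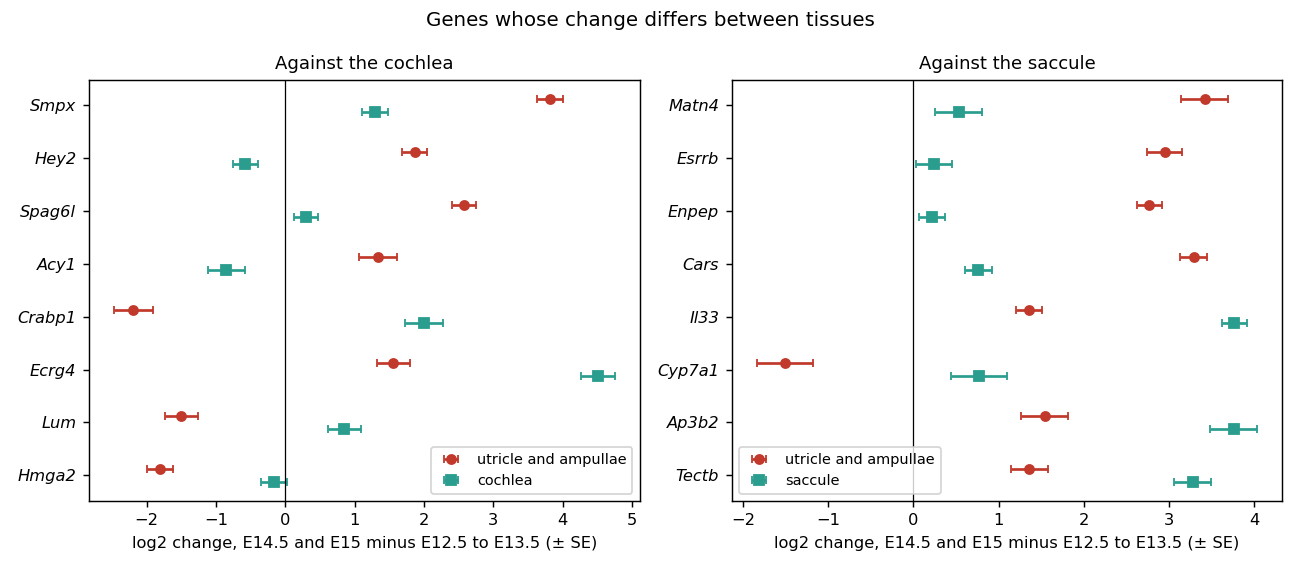
Log2 change from the earlier to the later stages with its SE (bars) in the utricle and ampullae (red circles) and in the cochlea or saccule (green squares), for the genes named for a difference between tissues. Crabp1 has a change of -2.19 in the utricle and ampullae against 2 in the cochlea, and Matn4 3.42 against 0.53 in the saccule.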

How the data were processed

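RNA of dissected inner ear epithelium was labelled as biotinylated cRNA and hybridized to Affymetrix arrays, 1 pool per array. The authors computed the deposited probe set intensity values with MAS5, per the submitters' processing notes; its version and scaling are not given there. The linear signals, with a minimum of 10, were quantile normalized over 64 arrays and transformed as log2(signal + 16). Of 22626 probe sets, 15337 were at or above the array median on at least 2 arrays. Those naming 1 gene gave 9352 genes, each read from its brightest probe set. Symbols come from the platform annotation: 20380 probe sets have 1, 691 several and 1555 none.

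Differences were fitted with limma 3.58.1 in R 4.3.3, in 1 model of all 32 groups (32 residual degrees of freedom), whose moderated variances follow a trend with the mean signal. P-values are two-sided and rest on the spread between the 2 pools of a stage; this small number limits their precision. The script was tested on simulated data. Equal replicate numbers paired utricle and cochlea pools, whose deviations correlated at 0.2 to 0.51 across genes at each stage.

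Named genes are the 15 largest rises and 15 largest falls among called genes whose groups do not overlap, up to 4 called members per list, 4 per direction of each tissue difference, and a panel of inner ear genes; other genes were named after their values were seen. The leading genes of each step were named by size. The members, lists and tests were chosen with earlier results of these data known. Promoters are RefSeq windows of GRCm38.p6. Alternatives covered the pseudocount, the filter, normalization, probe sets, array weights, samples in the fit, replicate block, left-out arrays, and E14 added to the later stages.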

Additional observations from a re-analysis of the deposited data

Results flagged for a closer look

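The test of the difference between tissues marked the results below. Between the utricle with ampullae and the cochlea, 71 genes had a greater and 55 a lower change, and against the saccule 37 had a greater and 32 a lower change. Against the cochlea the differences were 2.54 for Smpx, 2.45 for Hey2, 2.28 for Spag6l and 2.19 for Acy1. In the other direction they were -4.19 for Crabp1, -2.95 for Ecrg4, -2.36 for Lum and -1.66 for Hmga2. Against the saccule they were 2.89 for Matn4, 2.7 for Esrrb, 2.55 for Enpep and 2.53 for Cars. The negative ones were -2.41 for Il33, -2.28 for Cyp7a1, -2.22 for Ap3b2 and -1.93 for Tectb. Acy1 was at the floor on 3 of the 6 earlier utricle arrays, and Cyp7a1 on all 4 later ones. In the other tissues Acy1 was at the floor on both E15 cochlea arrays, and Cyp7a1 on 9 of the 10 saccule arrays, with 207 on the second E15 array. Without that array the difference for Cyp7a1 was -1.51. The other probe set for Cars changed by only 0.2 in the utricle and ampullae. Groups of 2 arrays are too small for a search for outlying arrays.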

How the results depend on the processing

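Groups of 2 arrays limit each single step, and dim probe sets have only a bound. Alternatives named below as chosen after seeing the data are left out of the next count. Of 88 named genes in the main comparison, 62 kept their side of the threshold under every other alternative. The 88 include panel genes that were not called to begin with, such as Pou4f3 and Sox2. A pseudocount of 64 took 21 of the 88 below the threshold. Among these were Myo7a (0.69), Tctex1d1 (0.91), Rsph1 (0.84), Neurod1 (-0.75) and Tubb3 (-0.81). Counts are given as higher then lower. A pseudocount of 1 gave 81 fallen genes in the main comparison and 19 from E14.5 to E15. A pseudocount of 64 gave 118 and 22 in the main comparison, 42 and 32 against the cochlea, 18 and 20 against the saccule and 111 and 66 from E12.5 to E13.5. A filter of 16 arrays gave 21 lower against the saccule. With every probe set tested alone there were 87 lower against the cochlea, 198 fallen from E12.5 to E13.5 and 49 and 23 from E14.5 to E15. Array weights gave 51 and 28 for that last step. With only the 4 arrays of E12.5 and E13.5 in the fit, limma called 0 and 0, with 1034 and 642 at an unadjusted p below 0.05. A slope over the 5 stages gave 460 and 230 for the main comparison, and Mki67 then passed with -1.35. E14 among the later stages gave 164 and 33. Values as deposited gave 221 and 40. The cause of these shifts was not tested.

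Chosen after seeing the data, leaving out E12.5 gave 30 fallen in the main comparison, 44 higher against the cochlea and 20 and 21 against the saccule. E14.5 alone as the later stage gave 122 and 15, 23 and 21 against the cochlea and 16 and 15 against the saccule; Col1a1 (-0.09) and Fos (-0.06) reversed. E15 alone gave 121 fallen, 128 and 114 against the cochlea and 62 and 51 against the saccule.

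Leaving out 1 array at a time gave 172 to 216 risen and 38 to 68 fallen in the main comparison. The ranges were 55 to 93 higher and 45 to 76 lower against the cochlea, 27 to 41 and 29 to 40 against the saccule, 33 to 614 and 2 to 366 from E12.5 to E13.5, and 12 to 26 and 3 to 13 from E14.5 to E15. A lone array is taken to vary as the other groups do. With the replicate number as a block the main comparison gave 195 and 48, and differences within same-numbered pools gave 74 and 73 against the cochlea; the block moved no count by over 1.5 times. Same-numbered utricle and saccule pools correlated at 0.32 at E12.5, 0.5 at E13, 0.28 at E13.5, 0.13 at E14.5 and -0.34 at E15.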

Other observations

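The 2 arrays of E14, which are in neither group, lay above the earlier range for several genes that rose. Smpx gave 209 and 284, Gfi1 606 and 648, Atoh1 269 and 341, Spag6l 462 and 496, and Sparcl1 1238 and 1043. Myo7a, an unconventional myosin of the hair bundle, gave 104 and 84.4 at E14, against 53.1 to 97.8 on the later arrays. Otor and Hey2 differed between the 2 arrays, with 22.1 and 176 for Otor and 50.5 and 123 for Hey2, so that the first E14 array fell within the earlier range for both. Cdkn1b, Skil and Cenpf showed the same division, with 253, 723 and 354 on the first E14 array and 64.4, 243 and 152 on the second. The first E12.5 array gave 245, 1485 and 410 for these genes, the highest of the 6 earlier arrays. Cenpa was lower at E14 (144 and 216) than at E14.5 (402 and 419). The embryonic globin Hbb-y gave 76.5 and 406 at E14, both below E14.5 (431 and 478). No test was made of these values.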
